A study of Mus musculus with 8 samples.

Results

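Strong ERRα peaks in the liver were compared between ERRα3SA and wild-type (WT) mice from the peak lists of the 2 genotypes. A peak was called strong when its score was at least 100, and its partner was any interval of the other genotype's whole list that shared at least 1 bp with it. Of the 126927 peaks in the 4 lists of the series, 9741 were strong liver peaks, of which 3770 came from the WT list of 21813 and 5971 from the ERRα3SA list of 29040. Strong ERRα3SA peaks without a WT partner are called gained here, strong WT peaks without an ERRα3SA partner lost, and strong peaks with a partner kept. There were 568 gained peaks, 82 lost peaks, and kept peaks numbering 5403 in the ERRα3SA list and 3688 in the WT list. The words describe the presence of an interval in a list and not a tested change.

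The series asked where ERRα sits on chromatin when phosphorylation sites in its amino-terminal domain are mutated (3SA). Chromatin immunoprecipitation followed by sequencing (ChIP-seq) with an antibody to ERRα was run on livers, and on gastrocnemius and soleus muscle, of male C57BL/6N mice aged 2 to 3 months. One group was WT and the other carried the ERRalpha 3SA phospho-mutant allele, and input DNA without antibody was sequenced for both. Each liver library pooled 3 immunoprecipitations per the labels (the study's methods give a different number) from crosslinked livers of 2 mice, which left 1 library per genotype and no replicate. All differences below are therefore between 2 libraries and have no replicate check. Confidence intervals of shares are 95% Wilson intervals that cover counting error only, peaks are not independent samples, and the sequencing depth behind the lists is unknown. Of 17 liver marker genes, 5 in the WT list (Hp, Hpx, Cyp2e1, Pck1 and G6pc) and 7 in the ERRα3SA list had a strong peak within 20 kb of the transcription start site (TSS). Of 17 skeletal muscle marker genes, 2 and 3 had one. Over all protein-coding genes of RefSeq, 8.02% in the WT list and 11.9% in the ERRα3SA list had one.

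ERRα, encoded by Esrra, is an orphan nuclear receptor that works with the coactivators PGC-1α and PGC-1β and is known for its control of mitochondrial energy genes. It binds as a monomer or dimer to the ERR response element (ERRE), an extended nuclear receptor half-site whose consensus is TCAAGGTCA. In liver, ERRα occupies genes of oxidative phosphorylation, the TCA cycle, fatty acid oxidation and glucose handling, often close to their start sites.

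Sequences from the reference genome (GRCm38/mm10) are shown to let the ERRE of gained peaks be read beside that of kept and lost ones. The gained peaks are the 5 with the highest scores among those within 20 kb of a TSS that held an ERRE in their central 300 bp. The strand that carries the element is written from 5′ to 3′, and capitals mark the ERRE on which each stretch is centred. The gained peaks were nearest to Aldh1l1 (chr6:90553349-90553407, minus strand), Atp5j (chr16:84836359-84836417, minus strand), BC005537 (chr13:24806221-24806279, minus strand), 4930563M20Rik (chr8:116814986-116815044, plus strand) and Paqr5 (chr9:62042422-62042480, plus strand).
Aldh1l1, gained: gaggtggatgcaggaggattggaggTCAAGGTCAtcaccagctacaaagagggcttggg
Atp5j, gained: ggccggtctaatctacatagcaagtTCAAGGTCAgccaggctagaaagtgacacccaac
BC005537, gained: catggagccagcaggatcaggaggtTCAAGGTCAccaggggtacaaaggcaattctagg
4930563M20Rik, gained: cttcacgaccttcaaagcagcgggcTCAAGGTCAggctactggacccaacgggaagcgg
Paqr5, gained: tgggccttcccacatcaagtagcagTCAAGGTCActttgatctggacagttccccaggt

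For comparison, 3 of the 5 kept and 3 of the 5 lost peaks chosen by the same rule follow. The kept peaks are those nearest to Capn2 (chr1:182501005-182501063), Esrra (chr19:6922312-6922370) and Qprt (chr7:127120218-127120276), all on the plus strand. The lost peaks are those nearest to Gm9961 (chr16:11894506-11894564), Ncor1 (chr11:62428921-62428979) and Tfeb (chr17:47741785-47741843), also on the plus strand. The Capn2 peak held 7 ERREs in its central 300 bp and the Gm9961 peak 2, and each of the others held 1. Another TCAAGGTCA, left in lower case, precedes the capitals in the Capn2 stretch.
Capn2, kept: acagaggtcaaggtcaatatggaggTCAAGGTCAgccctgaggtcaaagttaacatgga
Esrra, kept: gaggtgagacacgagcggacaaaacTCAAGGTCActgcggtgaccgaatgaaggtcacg
Qprt, kept: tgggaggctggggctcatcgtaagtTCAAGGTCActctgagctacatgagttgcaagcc
Gm9961, lost: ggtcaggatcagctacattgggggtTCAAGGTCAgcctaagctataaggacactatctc
Ncor1, lost: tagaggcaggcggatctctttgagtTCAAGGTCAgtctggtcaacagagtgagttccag
Tfeb, lost: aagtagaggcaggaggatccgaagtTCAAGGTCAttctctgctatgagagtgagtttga

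Most strong peaks were present in both genotypes, and most gained peaks scored under 150. Gained peaks made up 9.51% of the strong ERRα3SA peaks (8.79 to 10.3) and lost peaks made up 2.18% of the strong WT peaks (1.76 to 2.69). Of the gained peaks, 468 scored under 150, where they were 22.2% of 2110 ERRα3SA peaks. Only 2 of the 1530 ERRα3SA peaks that scored 300 or more had no WT partner (0.131%), and no gained peak scored above 340. Among WT peaks the share without partner fell from 4.24% of 1391 at scores of 100 to under 150 to 0.413% of 727 at 200 to under 300, and was 0.881% of 908 at 300 or more, with 8 peaks. In both lists the share without partner was already graded below the threshold, at 55.5% and 25.1% for scores of 50 to 99. Just outside the threshold, at 95 to 99, 28.5% of 494 ERRα3SA peaks and 7.49% of 307 WT peaks had no partner, and just inside it, at 100 to 104, 36.8% of 356 and 7.38% of 271.

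The 2 lists differ in length, and the excess of gained over lost peaks depended on how their peaks were matched. When the 3770 highest-scoring ERRα3SA peaks, all of which scored at least 151, were set against the same number of strong WT peaks, 88 had no WT partner (2.33%), against 82 lost WT peaks (2.18%). This matching also set a higher score threshold in the ERRα3SA list than in the WT list. At equal scores the excess remained up to 300, with 6.36% of 1148 ERRα3SA peaks and 1.61% of 744 WT peaks without partner at 150 to under 200, and 2.11% of 1183 and 0.413% of 727 at 200 to under 300. Whether the longer ERRα3SA list came from the mutation, the depth of the library or the yield of the immunoprecipitation cannot be told apart with 1 library per genotype.

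**Figure D1:**
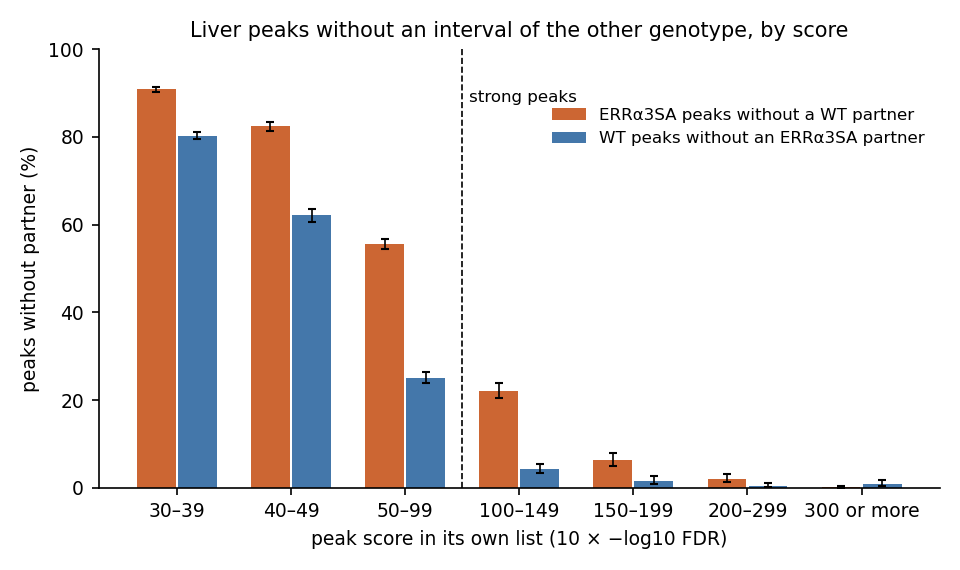
Share of liver peaks without an interval of the other genotype (y axis, percent) in 7 bands of the peak's score in its own list (x axis), for the ERRα3SA list (orange) and the WT list (blue), with 95% Wilson intervals as error bars and the threshold for strong peaks as a dashed line. The share falls from 90.9% and 80.3% in the lowest band to 0.131% (ERRα3SA) and 0.881% (WT) at 300 or more, where the WT share is above the 0.413% of the band before it.

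Strong ERRα3SA peaks often matched a WT interval below the threshold, and strong WT peaks rarely matched a weak ERRα3SA one. The best WT partner was itself strong for 3307 of the 5971 ERRα3SA peaks (55.4%), scored 50 to 99 for 1461 (24.5%) and 30 to 49 for 635 (10.6%). The best ERRα3SA partner was strong for 3311 of the 3770 WT peaks (87.8%), scored 50 to 99 for 313 (8.30%) and 30 to 49 for 64 (1.70%). Over the 3307 ERRα3SA peaks that were strong in both lists, Spearman's rho between the ranks of the peaks in their own lists was 0.753, a description across peaks of 2 libraries.

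Within 20 kb of a TSS, the kept peaks with the best summed rank in the 2 lists lay at genes of several kinds. The Capn2 peak, in an intron of the gene of the large subunit of m-calpain, was second in the ERRα3SA list with a score of 9333 and ranked 3 in the WT list with 6140. The peak at the Esrra promoter, chr19:6920988-6923657, ranked 3 with 5938 in ERRα3SA and 5 with 4823 in WT, and Esrra also had a weaker ERRα3SA peak of score 77 in an intron without a WT partner. The Nlrc5 peak, upstream of the transactivator of MHC class I genes, ranked 4 and 9, and the promoter peak of the enolase gene Eno1 ranked 5 and 10. The peak in intron 1 of the aldolase gene Aldoa ranked 10 and 11. Ppargc1a, the gene of PGC-1α, had no liver peak within 20 kb in either list.

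**Figure D2:**
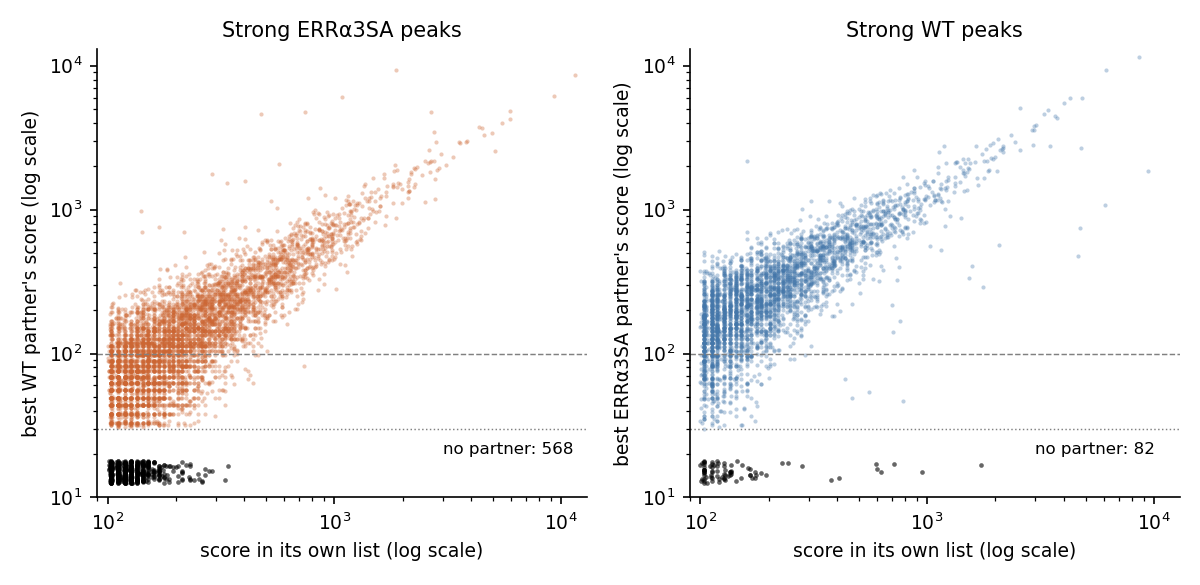
Score of each strong liver peak in its own list (x axis, log scale) against the score of its best partner in the other list (y axis, log scale), for the 5971 strong ERRα3SA peaks (left) and the 3770 strong WT peaks (right). Black points at the foot of each panel are the 568 gained and 82 lost peaks, spread vertically for display only, and the lines mark the threshold of 100 and the lowest score in the lists, 30.

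Some kept peaks were strong in one list and near the lowest score in the other. The ERRα3SA peak at Csrp2, a LIM domain protein gene, ranked 2173 of 29040 with a score of 231, and its WT partner scored 32 and ranked 21383 of 21813. The ERRα3SA peaks at 3200001D21Rik, Tmprss2 and Ldlrad3, which scored 177 to 219, had WT partners that also scored 32. In the WT list, the peaks at Eef2k (104), 4930467E23Rik (121), Snord116 (174), Gm10354 (152) and Smad7 (151) had ERRα3SA partners that scored 30 to 34. These peaks count as kept although their partners scored close to 30, the lowest score in the lists.

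Gained peaks resembled kept peaks in position, and lost peaks did not. Promoter-TSS annotations made up 8.80% of gained peaks (6.74 to 11.4, 50 peaks), 9.33% of kept peaks in the ERRα3SA list (8.58 to 10.1, 504 peaks) and 3.66% of lost peaks (1.25 to 10.2, 3 peaks). With lists of equal length, 14.8% of the 88 gained peaks were at promoters. Introns held 46.3% of gained, 47.7% of kept and 35.4% of lost peaks. In the shares and medians of peaks from here on, kept peaks are those of the ERRα3SA list unless the WT list is named. Kept peaks of the WT list were 9.30% promoter-TSS, 48.7% intron and 34.3% intergenic. Of them, 60.7% lay within 20 kb of a TSS and 24.7% had a repeat at the centre. Intergenic annotations covered 227 of the 568 gained peaks (36.0% to 44.0%), 35.5% of kept peaks (34.2 to 36.8) and 57.3% of lost peaks (46.5 to 67.5). The interval of the lost peaks did not overlap either of the other 2, and those of gained and kept peaks overlapped slightly. Exons held 1.76%, 2.81% and 2.44%, and transcription termination sites 1.41%, 2.39% and none of the 82 lost peaks, for which the upper limit is 4.48%.

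Lost peaks also lay farther from the nearest TSS. Peaks within 20 kb of a TSS were 60.9% of gained (56.8 to 64.8, 346 peaks), 60.5% of kept and 37.8% of lost peaks (28.1 to 48.6, 31 peaks). Within 1 kb lay 15.5% of gained, 16.6% of kept and 4.88% of lost peaks, and beyond 50 kb lay 18.0%, 19.6% and 35.4%. The median distance was 12908 bp for gained peaks (95% interval 10832 to 15571), 12605 bp for kept peaks (11894 to 13396) and 28709 bp for lost peaks (21335 to 46877). Among those within 20 kb, 43.6% of gained, 42.0% of kept and 54.8% of lost peaks lay upstream of the start site. The distance of the lost peaks depended on the partner rule: where the partner's centre had to lie within 300 bp, 464 peaks counted as lost and 65.9% of them lay within 20 kb.

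Repeats were more frequent at the centre of lost peaks than of gained or kept ones. A repeat was annotated at the centre of 46.3% of lost peaks, 27.1% of gained peaks and 23.7% of kept peaks. LINE elements were at 9.76% of lost, 2.46% of gained and 1.91% of kept peaks. SINE elements showed no such order, with 12.2%, 15.5% and 14.6%. Over the whole WT list, weak peaks included, LINE elements were at 9.29%, close to the share of lost peaks, and any repeat at 32.0%. Repeats of the rRNA, simple, low-complexity and satellite classes were at 13.4% of lost peaks (7.66 to 22.4, 11 peaks), 1.23% of gained peaks and 2.04% of kept peaks. With these repeats left out, an alternative chosen after seeing the data, 71 lost peaks remained, of which 39.4% (28.9 to 51.1) lay within 20 kb of a TSS.

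**Figure D3:**
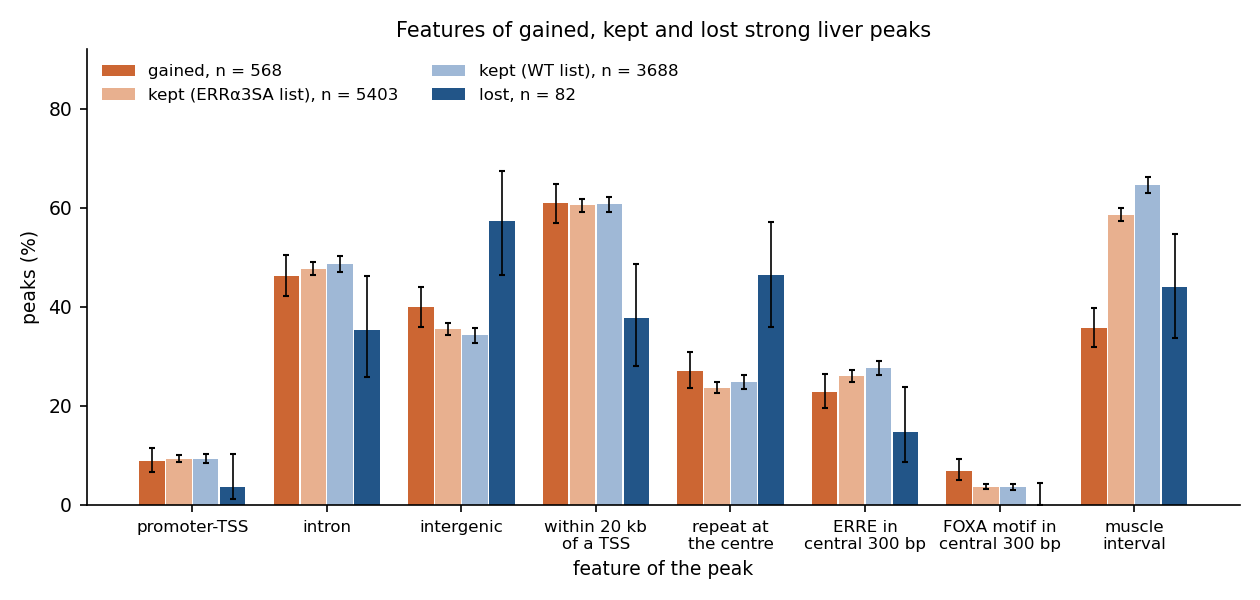
Share of peaks (y axis, percent) with each of 8 features (x axis) among gained, kept and lost strong liver peaks, kept peaks shown for each list, with 95% Wilson intervals as error bars. Gained and kept bars lie close together for position, at 60.9% and 60.5% within 20 kb of a TSS, whereas lost peaks are more often intergenic (57.3%) and in repeats (46.3%).

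Base composition differed little. The median GC fraction was 0.493 in gained peaks (0.489 to 0.499), 0.497 in kept peaks (0.495 to 0.498) and 0.482 in lost peaks (0.473 to 0.496). The median CpG fraction was 0.0127 (0.0119 to 0.0134), 0.0132 (0.0130 to 0.0135) and 0.0119 (0.00973 to 0.0158). Among promoter-TSS peaks only, gained peaks had fewer CpGs, with a median fraction of 0.0315 (0.0264 to 0.0402, 50 peaks) against 0.0449 (0.0417 to 0.0489, 504 peaks) in kept peaks. A fraction of at least 0.03 was found in 26 of the 50 gained promoter peaks (52.0%) and 67.7% of the kept ones. At scores of 100 to under 150 the medians were 0.0320 (0.0200 to 0.0411, 36 peaks) and 0.0450 (0.0346 to 0.0519, 125 peaks), whose intervals overlapped. The 27 gained peaks that scored 200 or more had a median GC fraction of 0.450 (0.434 to 0.478), below the 0.498 (0.496 to 0.501) of the 2686 kept peaks in that range.

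Gained and lost peaks were narrow. Median widths were 543 bp for gained peaks, 784 bp for kept peaks of the ERRα3SA list, 781.5 bp for kept peaks of the WT list and 414 bp for lost peaks. A wide interval has more room to meet a partner, so width is not independent of the classes. Within the score range of 100 to under 150 the medians were 535.5 bp for gained and 650 bp for kept ERRα3SA peaks. An interval of the other genotype lay within 1 kb of 7.92% of gained peaks (45 peaks) and 24.4% of lost peaks (20 peaks).

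In the central 300 bp, the ERRE was nearly as frequent in gained as in kept peaks. TCAAGGTCA on either strand was in the central 300 bp of 130 gained peaks (22.9%, 19.6 to 26.5), 26.0% of kept ERRα3SA peaks (24.8 to 27.2), 27.6% of kept WT peaks and 12 lost peaks (14.6%, 8.57 to 23.9). Windows of the same length 5 kb to either side held it in 0.617% of cases for gained peaks, 0.954% for kept ERRα3SA peaks and 0 of 161 for lost peaks, with an upper limit of 2.33%. Where a partner had to score at least 100, 459 peaks counted as lost and 26.4% of them held an ERRE. With any second base (TNAAGGTCA), which includes every TCAAGGTCA, the shares were 31.7%, 34.2%, 35.7% and 20.7%. The element written backwards without complement, ACTGGAACT, used as a control of the same composition, was in 0.352% of gained and 0.333% of kept peaks. Peaks with at least 2 ERREs were 0.880% of gained and 3.15% of kept peaks.

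Within score bands the ERRE share of gained peaks was 22.0%, 23.3% and 37.0% at scores of 100 to under 150, 150 to under 200 and 200 or more, the last over 27 peaks (21.5 to 55.8). The kept ERRα3SA peaks gave 27.0%, 25.2% and 25.6%. Where present, the ERRE lay a median of 64.5 bp from the centre of the interval in gained peaks, 57 bp in kept peaks and 97 bp in the 12 lost peaks.

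**Figure D4:**
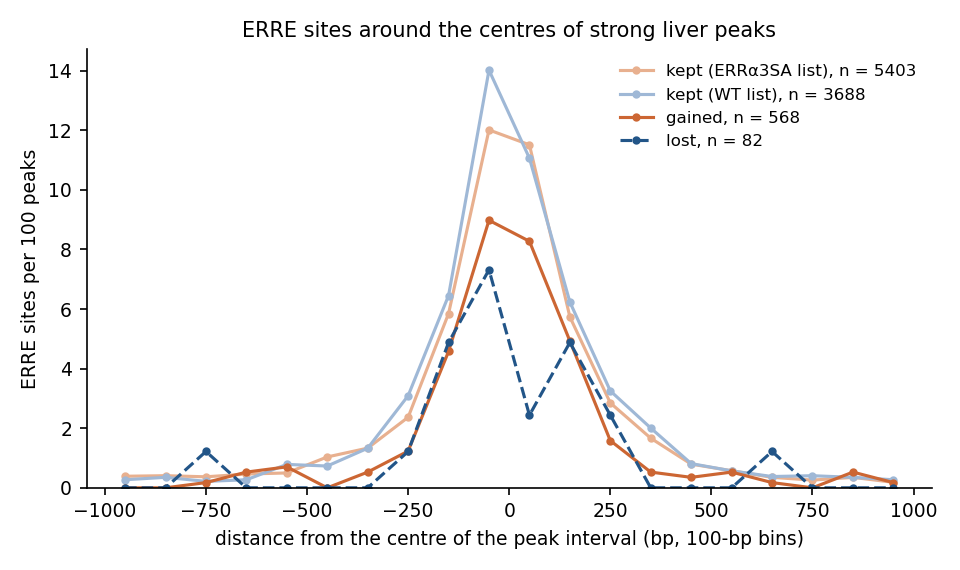
ERRE sites (TCAAGGTCA, both strands) per 100 peaks (y axis) in 100-bp bins of distance from the centre of the peak interval (x axis, bp) for gained, kept and lost strong liver peaks. Gained peaks rise to 8.98 and 8.27 sites per 100 peaks in the bins beside the centre and kept ERRα3SA peaks to 12.0 and 11.5, while the line of the lost peaks rests on 82 peaks.

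Peaks with an ERRE were often centred in a SINE, a class of short repeats that includes the mouse B1 and B4 families. A SINE was annotated at the centre of 48 of the 130 gained peaks with an ERRE (36.9%, 29.1 to 45.5) and 9.13% of the 438 without. In kept ERRα3SA peaks the shares were 32.6% (30.2 to 35.1) and 8.25%, so the gained and kept intervals overlapped. The gained peak at Aldh1l1, whose sequence is given above, was centred in such an element.

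A motif of the FOXA pioneer factors, which open chromatin in liver, was more frequent in gained peaks. TGTTTAC was in the central 300 bp of 39 gained peaks, or 6.87% (5.06 to 9.25), 3.68% of kept ERRα3SA peaks (3.21 to 4.22) and none of the 82 lost peaks, with an upper limit of 4.48%. The windows 5 kb away gave 4.32% for gained peaks (3.28 to 5.66) and 3.94% for kept peaks. At scores of 100 to under 150 the shares were 6.84% (4.88 to 9.49) of gained and 4.02% (3.17 to 5.08) of kept peaks, whose intervals overlapped. The share among gained peaks was 4.09% with a score threshold of 50. The letters of the HNF4A site CAAAGTCCA, the E-box CACGTG, the SP1 site GGGCGG and the ETS site CCGGAAG were in 0.704%, 4.75%, 10.4% and 2.11% of gained and 0.777%, 5.40%, 12.1% and 2.76% of kept peaks. C/EBP (TTGCGCAA), CREB (TGACGTCA) and NRF1 (GCGCATGCG) sites were in at most 0.296% of either class. A match to these letters is a description of the sequence and not evidence of binding by the factor.

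Gained liver peaks were less often shared with skeletal muscle. An ERRα interval of WT muscle lay over 14.1% of gained liver peaks (80 peaks), 37.3% of kept ERRα3SA peaks and 30.5% of lost peaks, and an interval of ERRα3SA muscle over 29.8%, 54.8% and 40.2%. Either muscle list covered 35.7% of gained peaks (31.9 to 39.8) and 58.6% of kept ERRα3SA peaks (57.3 to 59.9). Of kept WT peaks it covered 64.6% (63.1 to 66.1). Of lost peaks it covered 43.9% (33.7 to 54.7), and 66.8% of the 464 counted as lost when the partner's centre had to lie within 300 bp. In the score range of 100 to under 150 the shares were 35.3% (31.1 to 39.7) and 47.0% (44.6 to 49.4), and at 200 or more 22.2% of 27 gained (10.6 to 40.8) and 68.1% of 2686 kept peaks (66.3 to 69.9). The gained share between these ranges, at 150 to under 200, was higher than in either and is given below. ERRα3SA liver peaks of score 50 to 99, with and without partner, gave 32.6%.

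The gained peaks with the highest scores lay at genes of different functions. Within 20 kb of a TSS the first was in intron 1 of Aldh1l1, the gene of cytosolic formyltetrahydrofolate dehydrogenase, with a score of 280. The second lay at -13126 bp from the TSS of the splicing factor gene Rbm25 with 270. The peaks at Atp5j, which encodes a coupling subunit of ATP synthase, and at the magnesium transporter gene Nipal1 both scored 260. They were followed by Trim2, a ubiquitin ligase gene (254), BC005537 (231), and Crat, Zbtb46, Tm4sf4 and 4930563M20Rik (213 each). None of the 10 ranked above 1666 of 29040. At any distance the highest were in intergenic DNA nearest to Bbs10 (340), Mboat1 (330) and Lgi1 (289), and a peak in exon 6 of Ogdh, of the oxoglutarate dehydrogenase complex, scored 270 at 42062 bp from the TSS.

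The 2 promoter-annotated peaks among these were at Atp5j and Crat, whose product transfers acetyl groups between carnitine and coenzyme A. The Atp5j interval, chr16:84835992-84836547, lay at -644 bp from the start site and overlapped an ERRα3SA muscle interval but no WT muscle one, and the nearest WT liver interval was 975 bp away. The Crat interval, chr2:30415174-30415752, lay at 285 bp and overlapped intervals of both muscle lists. The central 300 bp of each are shown on the plus strand because the data bear on these promoters. Capitals mark an ERRE (on the minus strand) and overlapping NRF1 sites in Atp5j (chr16:84836119-84836418), and 2 SP1 sites in Crat (chr2:30415313-30415612).
Atp5j promoter peak: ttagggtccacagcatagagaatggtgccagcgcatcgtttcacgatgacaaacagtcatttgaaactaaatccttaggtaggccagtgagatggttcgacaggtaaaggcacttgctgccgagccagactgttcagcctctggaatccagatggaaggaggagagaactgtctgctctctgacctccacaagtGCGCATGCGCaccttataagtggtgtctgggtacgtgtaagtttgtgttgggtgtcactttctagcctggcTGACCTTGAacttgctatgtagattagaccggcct
Crat promoter peak: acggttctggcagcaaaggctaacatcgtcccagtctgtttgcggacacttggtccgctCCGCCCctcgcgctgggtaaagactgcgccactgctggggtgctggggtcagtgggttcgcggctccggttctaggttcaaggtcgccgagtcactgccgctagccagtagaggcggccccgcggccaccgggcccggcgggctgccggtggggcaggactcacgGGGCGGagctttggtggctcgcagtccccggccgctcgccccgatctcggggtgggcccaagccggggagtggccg

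Lost peaks were few, and the strongest of them lay in sequence related to ribosomal RNA. Of the 82, 59 scored under 150 and 11 scored 200 or more. The highest, with 1725 and rank 46 in the WT list, was annotated to Limd1 but lay in the last exon, a 3′ UTR, of Lars2, the gene of the mitochondrial leucyl-tRNA synthetase (chr9:123461834-123462169). The next 4 were centred in LSU-rRNA repeats, nearest to Arhgef26 (946), Gphn (711), Timm8a1 (623) and Neto1 (604). Of 15 strong WT peaks in rRNA repeats, 7 were lost, whereas none of the 6 strong ERRα3SA peaks in such repeats was gained. The other 8 had an ERRα3SA partner, which ranked lower in its list in all 8. Examples are the peaks nearest to Filip1l, which scored 6104 and ranked 4 in WT and scored 1079 and ranked 165 in ERRα3SA, and to Pex2, which scored 4649 and ranked 8 in WT and scored 473 and ranked 765 in ERRα3SA. The first-ranked WT peak lay on the ribosomal RNA gene Rn45s, chr17:39842997-39848827, with a score of 9382, and its partner scored 1866 and ranked 55.

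These rRNA-related peaks were singled out after their values were seen. Of the 15-base words of the Limd1 peak, 36.3% occurred in other peaks that were annotated as rRNA repeats, of which the 4 lists held 61 distinct intervals. At least 10% of the words did so in 6 lost peaks (7.32%), 6 kept ERRα3SA peaks and no gained peak. Muscle intervals overlapped several of them, as at Arhgef26 and Neto1. The central 60 bases of the lost peaks nearest to Arhgef26 (chr3:62159269-62159328) and Gphn (chr12:78350985-78351044), and of the lost peak at 2700054A10Rik (chr17:13552294-13552353), which scored 408 in a simple repeat of the unit CTGTG, are shown on the plus strand because they carry no ERRE.
Arhgef26, lost: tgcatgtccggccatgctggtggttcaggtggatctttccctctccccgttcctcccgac
Gphn, lost: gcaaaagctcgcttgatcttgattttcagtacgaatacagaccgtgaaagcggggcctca
2700054A10Rik, lost: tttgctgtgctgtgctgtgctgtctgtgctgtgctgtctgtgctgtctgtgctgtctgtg

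The remaining lost peaks of high score within 20 kb of a TSS were near Osbpl1a (376), an oxysterol-binding protein gene, Asmt (243), Sfi1 (176), Speer4cos (175), Eci2 and Il1rap (166 each), Gm9961 (151) and Arhgef7 (143). Eci2 encodes a peroxisomal enoyl-CoA isomerase, and its lost peak lay in an intron, 8983 bp from the start site, with intervals of both muscle lists over it. The 11 strong lost peaks of score 200 or more held no ERRE in their central 300 bp, and 6 of them were in rRNA, simple, low-complexity or satellite repeats.

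By nearest gene, gained peaks touched 339 of the 2975 genes with a strong ERRα3SA peak within 20 kb (11.4%), and lost peaks touched 31 of the 1990 genes with a strong WT peak (1.56%). Of the 339, 101 also had a kept peak and 238 (70.2%) had none. For 44.0% of them the WT list held no peak of any score within 20 kb, and for 122 (36.0%) it held none at any distance. Gained peaks have no WT interval by definition, so these shares are partly fixed by the rule. The same shares over all genes with a strong ERRα3SA peak are not given here. Of the 31 genes with a lost peak, 14 also had a kept peak and 8 had no ERRα3SA peak within 20 kb. Rn4.5s was the only gene with both a gained peak (104) and a lost peak (136).

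Among 21896 protein-coding genes of RefSeq, 11.7% had a kept peak within 20 kb, 1.33% a gained peak and 0.1% a lost peak, and the gene lists below are read against these shares. In the union of 19 lists, 779 genes, 294 had a strong ERRα3SA peak, 287 a kept peak, 32 a gained peak and 3 a lost peak (Ncor1, Eci2 and Mrpl44). Gained peaks were thus found at 10.9% of the listed genes with a strong ERRα3SA peak, near the 11.4% over all genes. No list was tested, because there was 1 library per genotype.

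**Figure D5:**
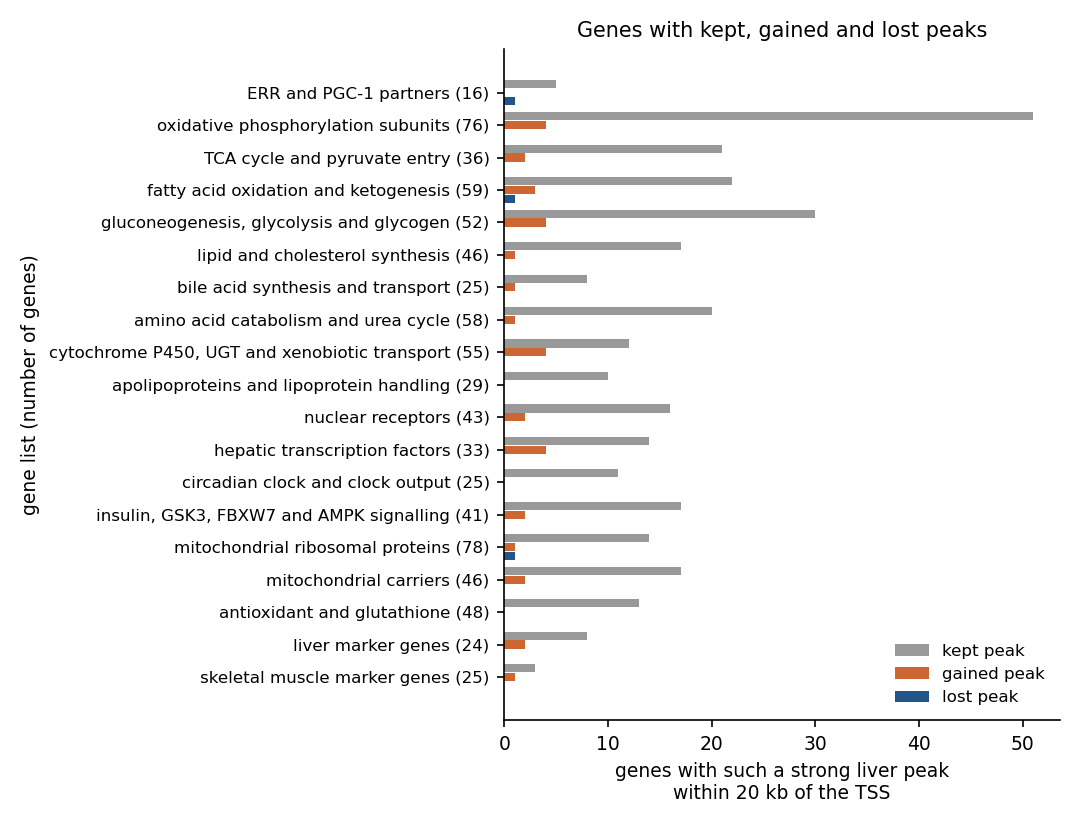
Number of genes (x axis) with at least 1 kept, gained or lost strong liver peak within 20 kb of the TSS in each of 19 gene lists (y axis, number of genes of the list in parentheses). A gene can count under more than 1 class, and kept peaks outnumber gained ones in every list, with 51 against 4 genes for oxidative phosphorylation.

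Genes of mitochondrial respiration mostly had kept peaks. Of 76 oxidative phosphorylation genes, 51 had a kept peak, 4 a gained peak and none a lost one. The kept peaks included the promoters of Ndufb4 of complex I (score 2811 in ERRα3SA and 2935 in WT), Uqcr10 of complex III (2243 and 1942) and Sdhb of complex II (1808 and 1114). The gained peaks were at Atp5j (260), Ndufb4 (160), Ndufs4 (119) and Ndufa6 (105), the last 3 of complex I. In 3 of the 4 genes a kept peak was present too, as at Ndufb4, whose gained peak in intron 1 lay 2046 bp from the nearest WT interval. Of 36 genes of the TCA cycle and pyruvate entry, 21 had a kept peak, among them Idh3a, a subunit gene of isocitrate dehydrogenase (1483 and 1670). Gained peaks lay at Pcx (135), at the promoter of the pyruvate carboxylase gene, and at -5134 bp from the TSS of Ogdh (127), and both genes had kept peaks.

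Among fuel genes of the liver, as in every list, those with a kept peak outnumbered those with a gained one. Of genes with a strong ERRα3SA peak, 13.6% of 22 (fatty acid oxidation) and 12.1% of 33 (glucose and glycogen) had a gained one. Over all genes this share was 11.4%. Of 59 genes of fatty acid oxidation and ketogenesis, 22 had a kept peak, among them Fabp3 (3579 and 2912) and the electron transfer flavoprotein gene Etfa (950 and 749). The 3 gained peaks were at Eci1 (135), a mitochondrial enoyl-CoA isomerase gene, Acat1 (119), the mitochondrial acetoacetyl-CoA thiolase gene, with an ERRE, and the promoter of Bdh1 (102), the ketone body enzyme hydroxybutyrate dehydrogenase. The lost peak at Eci2 (166) is described above. Of 52 genes of gluconeogenesis, glycolysis and glycogen, 30 had a kept peak and 4 a gained one. The gained peaks included those at the promoter of Gys2, liver glycogen synthase (189), Pcx (135) and the glycogen branching enzyme gene Gbe1 (125). For 3 of the 4 genes no kept peak lay within 20 kb.

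Lists of synthesis, catabolism and detoxification followed. Of 46 genes of lipid and cholesterol synthesis, 17 had a kept peak, such as Mvk (1509 and 1155) and Acacb (1279 and 1114), and Lpin2, a phosphatidate phosphatase gene, had a gained one (119) at 19983 bp from the TSS. Of 25 bile acid genes, 8 had a kept peak, with Klb, a co-receptor of fibroblast growth factors, at 1234 and 1074. A gained peak lay in an intron of Nr1h4, the gene of the bile acid receptor FXR (177), 1469 bp from the nearest WT interval. Of 58 genes of amino acid catabolism and the urea cycle, 20 had a kept peak, such as Got1 (986 and 672), and 1 a gained peak, in the lysine degradation gene Aass (143). Of 55 cytochrome P450, UGT and transporter genes, 12 had a kept peak and 4 a gained one, at Ugt1a6a and Cyp2f2 (111 each) and at Por, the P450 reductase gene, and Cyp4v3 (104 each). None of these 4 gained peaks held an ERRE in its central 300 bp. Of 29 genes of apolipoproteins and lipoprotein handling, 10 had a kept peak and none a gained or lost one.

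Regulators of transcription and signalling followed. Of 16 genes of ERRs, PGC-1 and their partners, 5 had a kept peak, among them Esrra and Ncoa3 (556 and 308), none had a gained peak, and the corepressor gene Ncor1 had a lost one (119) with the ERRE shown above. Of 43 nuclear receptor genes, 16 had a kept peak, among them Thra (1265 and 580), Nr2f6 (950 and 761) and the Ppara promoter (559 and 380). Gained peaks lay at Nr1h4 and at Rxra (127), the common dimer partner of many receptors. Of 33 hepatic transcription factor genes, 17 had a strong ERRα3SA peak and 4 a strong WT peak. Over all RefSeq protein-coding genes the shares were 11.9% and 8.02%. No other list differed as much between the genotypes, with 33 and 24 genes for gluconeogenesis, glycolysis and glycogen. The difference was picked out as the largest of all lists and was not tested. With peaks of any score counted, 29 of the 33 hepatic transcription factor genes had an ERRα3SA peak and 26 a WT peak. The gap thus lay mainly in which peaks reached a score of 100, and not in the presence of a WT peak. Kept peaks were at 14 of these hepatic genes, as at Cebpb (979 and 511). Gained peaks were at 4, among them Klf9 (117) and Atf4 (104), at scores close to the threshold. Of 25 clock genes 11 had a kept peak, such as Nr1d2 (621 and 278), and none a gained or lost peak.

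Of 41 genes of insulin, GSK3, FBXW7 and AMPK signalling, 17 had a kept peak, and gained peaks of 105 and 101 lay at Pik3r1 and at Prkag2, an AMPK subunit gene whose kept peak scored 517 and 477. Of 78 mitochondrial ribosomal protein genes, 14 had a kept peak, Mrpl39 a gained peak (135) and Mrpl44 a lost peak at its promoter (135). Of 46 mitochondrial carrier genes, 17 had a kept peak, with Slc25a10, the dicarboxylate carrier gene, at 2143 and 1337. Gained peaks lay at Slc25a51, the NAD carrier gene (127), and Ucp2 (119), the latter with an ERRE. Of 48 antioxidant genes 13 had a kept peak and none a gained or lost one. Of 24 liver marker genes 8 had a kept peak, such as Hpx (1167 and 1087), and gained peaks lay at the plasma protein genes Ahsg (160) and Trf (119). Of 25 skeletal muscle marker genes 3 had a kept peak, and a gained peak at the lower edge of the range lay near Myh4 (104).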

How the data were processed

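ERRα ChIP-seq was deposited as 1 annotated peak list per genotype and tissue, and for the 4 inputs no list was used here. Per the labels and the study's methods, the authors trimmed reads (Trimmomatic 0.36), aligned them to mm10 (BWA 0.7.12), removed duplicates (Picard 2.0.1), called peaks over input (MACS2 2.1.1.20160309) and annotated them (HOMER 4.9.1). The deposited peak score was read as 10 times −log10 of the false discovery rate and starts at 30. The deposited CpG and GC values are a fraction of each interval. Scores of the 2 lists were set side by side without scaling and held to the same thresholds, and ranks within each list were compared too.

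Partners, shares, medians with binomial order-statistic intervals, motif matches and gene counts were computed in Python 3.11.15 with pandas 2.3.3 and pysam 0.24.0. The code for peak overlap and motif search was tested on simulated data. Gene names are the deposited nearest genes. List genes matched the files' names (759), RefSeq symbols (56) or a synonym (1). The members and lists were chosen with earlier results of these data known. Named genes were those of the 10 highest gained and 10 highest lost peaks within 20 kb, the 5 best-ranked kept peaks, up to 4 gained, 4 lost and 3 kept members per list, Esrra and Ppargc1a, the 5 genes with most gained or lost peaks, genes with both, the 5 best peaks with an ERRE per class, and the 5 largest drops in rank per list. Others (the peaks beyond 20 kb, Rn45s, Filip1l, Pex2, Lars2) were chosen after their values were seen. Some genes that the rule names are not reported here. Depth was unknown, and with 1 library per genotype no test of genotype was made. Alternatives varied the score threshold, the partner rule, list length, TSS distance and motif.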

Additional observations from a re-analysis of the deposited data

How the results depend on the processing

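Each genotype had 1 library, the sequencing depth was unknown, and shares describe the 2 lists only. No paired analysis was possible because each genotype had 1 library. The counts of gained and lost peaks followed the thresholds, and the cause was not tested where none is given.

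A score threshold of 50 gave 4470 gained (34.4%) and 1196 lost peaks (14.6%), with 2271 and 514 target genes. The gained ones had promoter, 20-kb, ERRE and muscle shares of 6.69%, 56.5%, 19.4% and 26.6% and a median GC of 0.499, and the lost ones a muscle share of 28.2% and a GC of 0.499. A threshold of 200 gave 27 gained (0.995%) and 11 lost peaks (0.673%), with 14 and 4 target genes. Their 20-kb share was 51.9% (gained), ERRE shares 37.0% and 0%, muscle shares 22.2% and 63.6%, median CpG 0.0102 and 0.0448, median GC 0.450 and 0.530, and the promoter share of the lost peaks 0%. In the band from 150 to under 200, gained peaks had a promoter share of 16.4%, a muscle share of 43.8%, CpG of 0.0117 and GC of 0.481, and lost peaks 0%, 66.7% and an ERRE share of 8.33%.

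Lists of equal length gave 88 gained peaks (2.33%) at 47 genes, with promoter, 20-kb and ERRE shares of 14.8%, 53.4% and 27.3%, CpG of 0.0110 and GC of 0.475. Cutting the ERRα3SA partner list to the length of the WT list too, chosen after seeing the data, left these values and gave 99 lost peaks (2.63%).

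A partner centre within 300 bp gave 1074 gained (18.0%) and 464 lost peaks (12.3%), 645 and 279 genes, 20-kb shares of 64.9% and 65.9%, muscle shares of 51.2% and 66.8%, GC of 0.502 and 0.504, and an ERRE share of gained peaks of 17.4%. A partner of at least 100 gave 2664 gained (44.6%) and 459 lost peaks (12.2%), 1456 and 233 genes, a muscle share of gained peaks of 43.4%, and 20-kb and ERRE shares of lost peaks of 53.8% and 26.4%. A partner within 1000 bp gave 8.76% and 1.64%.

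A TSS distance of 5 kb held 33.8% of gained and 20.7% of lost peaks, at 190 and 17 genes, and 50 kb held 82.0% and 64.6%, the latter at 52 genes. Promoters taken as 1000 bp around the TSS held 15.5% of gained peaks. The ERRE share of gained peaks was 28.0% in the whole interval and 31.7% with TNAAGGTCA. Leaving out rRNA, simple, low-complexity and satellite repeats, chosen after seeing the data, gave 9.58% gained and 1.93% lost.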

Other observations

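Another peak of the same class lay within 100 kb of 65.8% of kept ERRα3SA peaks (64.5 to 67.1), 14.6% of gained peaks (11.9 to 17.8) and 7.32% of lost peaks (3.40 to 15.1). These shares follow the number of peaks in each class and are not a comparison of spacing. Gained peaks were found on every chromosome except Y, with the largest number on chromosome 11 (54 of 568) and 2 on the X chromosome. Kept ERRα3SA peaks also had their largest number on chromosome 11 (438 of 5403), with 17 on X and 1 on Y.

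In all, 7 genes carried more than 1 gained peak within 20 kb, and no gene carried more than 1 lost peak. Among those with 2 gained peaks were Plg, the gene of the plasma protein plasminogen, Map3k1, a kinase gene upstream of JNK signalling, Cct4, a subunit gene of the cytosolic chaperonin, Arap1 and Gm17019.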
